A study of Mus musculus with 2 samples.

Results

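A set of 10 genes of the ERK signalling output was followed across the cell types of mouse distal small-intestinal organoids and between Etv1 mutant and control cultures. They are the PEA3 transcription factors Etv1, Etv4 and Etv5, the MAP kinase phosphatases Dusp4, Dusp5 and Dusp6, the Sprouty and Spred inhibitors Spry2, Spry4 and Spred1, and Phlda1. They were taken by name, and all 10 of 10 were among the 22253 genes of the count table. Growth factors such as EGF activate receptor tyrosine kinases, which act through Ras, RAF and MEK to activate the kinases ERK1 and ERK2. ERK activity induces PEA3 factors and also its own inhibitors: Dusp proteins remove phosphate from MAP kinases, and Sprouty and Spred proteins act on the pathway between the receptor and RAF. EGF and ERK signalling are needed for crypt stem cell division in organoids, and the PEA3 factor Etv1 has also been described in enteroendocrine cells, the hormone-secreting cells of the gut lining.

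The material was organoids, epithelium grown in a gel, in which dividing crypt-like cells renew the mature lineages. There were 3 Etv1 mutant and 2 control cultures, called biological replicates in the labels, and every culture, mutant or control, had 2 reporter alleles: Neurog3-RFP for early enteroendocrine cells and Gcg-Venus for proglucagon-producing cells. The kind of Etv1 mutation, the age of the donor mice and the sort gate are not given in the sources used here. Cells were sorted, tagged with 1 hashtag oligonucleotide per culture, pooled and sequenced together, so that the cultures shared 1 RNA library. Whether the cultures came from separate animals is not stated, and the p-values measure the spread between cultures.

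Of 3409 barcodes, 2725 passed the cell filter and 1432 were assigned to 1 culture: 282, 281 and 197 cells of the mutant cultures and 323 and 349 cells of the control cultures. Summed counts of unique molecular identifiers (UMIs) per culture ranged from 4193197 to 6541047 in the mutant and were 7254380 and 7000900 in the control cultures. Clustering, which left out the 10 genes and the other pathway genes, gave stem-like (364 cells; Olfm4, Lgr5), cycling-like (281; Pclaf, Ube2c), injury-like (129; Sprr1a, Anxa1), enterocyte-like (97; Apoa1, Apoc3), goblet/Paneth-like (85; Spink4, Lyz1) and enteroendocrine-like cells (54; Chgb, Chga, Neurod1). The other 422 cells stayed unnamed and entered only the sums over all cells. Epithelial markers stood at 4824 to 4924 CPM (counts scaled to 1000000 per culture) in mutant and 4704 to 5037 CPM in control cultures, and all 6 mesenchymal markers had no count. Classes are rebuilt from these data and are not the submitters' annotation.

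The regulatory sequences of 3 of the 4 members that were higher in enteroendocrine-like than in stem-like cells are shown because they carry the pattern described further on; for Dusp4, the other one, none is shown. Each run is the 250 bases before the start that RefSeq gives for the gene, on the plus strand of GRCm38.p6, at chr12:38779832-38780081 for Etv1 (the first of its 2 entries), chr19:53528895-53529144 for Dusp5 and chr10:99262981-99263230 for Dusp6. Capitals mark GGAA, the core bound by ETS factors, on either strand, so that TTCC marks the core read on the other strand.
Etv1: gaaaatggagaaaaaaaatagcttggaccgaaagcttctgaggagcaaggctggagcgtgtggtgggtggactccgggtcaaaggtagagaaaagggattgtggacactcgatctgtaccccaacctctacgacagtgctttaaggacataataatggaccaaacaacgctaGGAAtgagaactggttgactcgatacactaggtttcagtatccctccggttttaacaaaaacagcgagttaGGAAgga
Dusp5: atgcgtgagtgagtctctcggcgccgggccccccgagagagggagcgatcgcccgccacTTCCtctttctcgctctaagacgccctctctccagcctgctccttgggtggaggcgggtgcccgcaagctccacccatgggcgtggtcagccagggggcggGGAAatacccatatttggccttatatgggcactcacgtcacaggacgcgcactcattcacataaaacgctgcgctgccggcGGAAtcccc
Dusp6: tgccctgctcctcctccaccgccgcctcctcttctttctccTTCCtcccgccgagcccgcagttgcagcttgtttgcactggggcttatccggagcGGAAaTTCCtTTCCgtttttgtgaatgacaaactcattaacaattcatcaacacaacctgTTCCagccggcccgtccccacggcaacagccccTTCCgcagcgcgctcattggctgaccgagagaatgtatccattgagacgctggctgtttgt
The Etv1 run held 2 cores, the Dusp5 run 3 and the Dusp6 run 6. Such a core is common: 93.4% of the 32851 promoter windows of this length held at least 1, with a median of 3. The longer ETS motif CCGGAAGT, in 2.88% of windows, the AP-1 motif TGANTCA, in 6.75%, and the CRE motif TGACGTCA, in 1.55%, were searched on both strands and had no match in these 3 runs. A match describes letters and shows no binding.

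Etv1, the mutated gene, was read first as a check of the labels. Over all cells it stood at 3.21, 3.06 and 3.10 CPM in the mutant cultures and at 6.20 and 6.28 CPM in the control cultures, from 20, 20 and 13 counts and from 45 and 44 counts. The mutant cultures lay below both control cultures, with a log2 fold change of −1.001 (SE 0.22), but the difference did not pass the test across all genes (edgeR quasi-likelihood test, adjusted p = 0.9997, unadjusted p = 0.0028, rank 21 of 11061 genes). Here 1 gene, 0.00904% of those tested, passed at an adjusted p under 0.05, and it was none of the 10. Pooled over cultures, the mutant level was 0.5002 times the control level, and counting error alone allows 0.349 to 0.711 (95% interval). Etv1 transcripts were still counted in every mutant culture, and since the mutation is not described, these levels may check nothing about it. The summed level of 12 enteroendocrine markers moved the same way, with 159.8 to 175.9 CPM in mutant and 194.7 and 644.2 CPM in control cultures, with no marker at 0 over all cells, and its part in the Etv1 difference was not tested. The value depended on the demultiplexing and on single cells: it was −0.57 with MULTIseqDemux assignment, −1.96 with 197 cells from each culture and −2.85 (adjusted p = 0.246) without the cell richest in Etv1 in each culture, and no call changed.

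No other PEA3 factor and no feedback gene passed the test between the genotypes over all cells. Of 9 members tested, 0 passed with edgeR and 0 with DESeq2, and 2 had an unadjusted edgeR p under 0.05, as did 337 of all genes (3.05%). The 9 had a median log2 fold change of 0.04 beside 0.00 over all genes. Etv1 and Spry2, 2 of these 9, had groups that did not overlap, where 17.0% of all genes tested did so. Spry2, a feedback inhibitor of receptor tyrosine kinase signalling, stood at 16.0, 14.7 and 15 CPM in the mutant and at 12.8 and 11.3 CPM in the control cultures. Every mutant culture lay above both control cultures, by a log2 fold change of 0.33 (SE 0.14; edgeR, unadjusted p = 0.0495, adjusted p = 0.9997). The remaining 7 overlapped between genotypes. Their log2 fold changes were 0.04 (SE 0.18) for Etv4, 0.31 (SE 0.35) for Etv5, −0.25 (SE 0.26) for Dusp4, 0.25 (SE 0.17) for Dusp5, 0.06 (SE 0.24) for Dusp6, 0.02 (SE 0.13) for Spred1 and −0.17 (SE 0.15) for Phlda1, all with an edgeR adjusted p of 0.9997. Dusp4 ran lowest in mutant culture 2, at 7.49 CPM, against 13.5 and 13.6 CPM in mutant cultures 1 and 3 and 12.5 and 14.4 CPM in the control cultures. Spry4 had 12 counts in all, 1, 1 and 2 in the mutant and 6 and 2 in the control cultures, and was below the low-count filter.

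**Figure D1:**
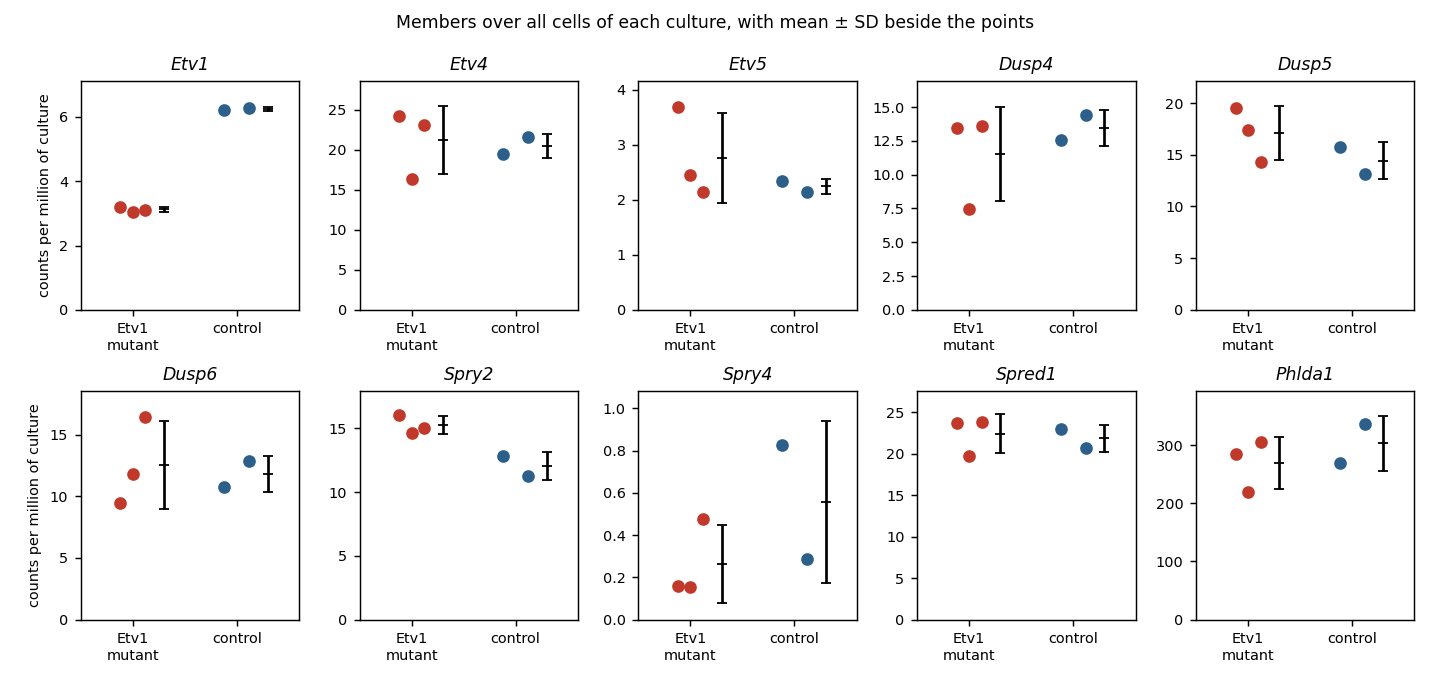
CPM of each culture over all its cells for the 10 genes, with 3 Etv1 mutant cultures left of 2 control cultures and mean ± SD beside the points. Etv1 was lower and Spry2 higher in all mutant cultures, neither passing the test across all genes, and the other 8 genes overlapped between the genotypes.

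Within classes the same test gave no call either, nor did DESeq2, and the members with an unadjusted edgeR p under 0.05 numbered 0 in stem-like, 1 in cycling-like and 0 in enteroendocrine-like cells, where 5.21, 4.08 and 4.35% of all genes tested did so. In stem-like cells 7 members were tested and 0 passed, where 0.0114% of 8746 genes passed. Phlda1, an ERK-induced pleckstrin-homology protein, had the smallest p there, at a log2 fold change of −0.12 (SE 0.10; edgeR adjusted p = 0.977). Its level in stem-like cells was 465.4, 379.6 and 403.5 CPM in the mutant and 444.9 and 429.0 CPM in the control cultures, which overlapped. In cycling-like cells 7 were tested and 0 passed, where 0.0333% of 9010 genes passed. Dusp4, a nuclear phosphatase of ERK and other MAP kinases, stood there at 6.34, 4.69 and 9.67 CPM in the mutant and 12.2 and 10.1 CPM in the control cultures. The groups did not overlap and the log2 fold change was −0.84 (SE 0.35), without passing (edgeR adjusted p = 0.9996, unadjusted p = 0.0317). The share of all genes without overlap was not counted in this class, and over all cells it was 17.0%. The test within a class was run where every culture had at least 20 cells and, for Etv1, also in enteroendocrine-like cells, which had 7 to 16 per culture. It was not run within enterocyte-like, goblet/Paneth-like or injury-like cells, each with under 20 cells in at least 1 culture, nor was the difference between enterocyte-like and stem-like cells in the genotype effect.

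Across cell types Etv1 was found almost entirely in enteroendocrine-like cells. They held 135 of its 142 counts, at 167.2, 205.4 and 146.2 CPM in the mutant and 204.6 and 271.2 CPM in the control cultures, and the lowest of these lay above the highest value in any other named class, 2.36 CPM in enterocyte-like cells of mutant culture 1. In stem-like cells it stood at 0, 0.646 and 0 CPM in the mutant and 0.539 and 0 CPM in the control cultures. The pooled level in enteroendocrine-like cells was 784 times that in stem-like cells, with a counting interval of 212.8 to 6539 that is wide because stem-like cells held 2 counts. Etv1 passed the low-count filter only through the enteroendocrine-like cells, so that it had to differ there and its test supports nothing; the fitted log2 fold change was 8.75 (SE 0.41), higher in 5 of 5 cultures. Injury-like and goblet/Paneth-like cells held no Etv1 count, which allows up to 0.856 and 1.72 CPM (3 counts over the UMIs of the class). The neighbouring levels below enteroendocrine-like cells, 0.473 CPM in enterocyte-like, 0.237 in stem-like and 0.101 in cycling-like cells, rested on 1, 2 and 1 counts and did not differ beyond their spread. The last 3 counts were in unnamed cells.

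The share of cells with an Etv1 UMI followed the same division. After each cell was thinned to 3832 UMIs, 16 of 50 enteroendocrine-like cells (32.0%, exact interval 19.5 to 46.7%) held one, against 42.6% unthinned, and 4 shallower cells were left out. In goblet/Paneth-like cells, which should lack it, it was 0 of 79, which allows up to 3.80%, and in stem-like cells 1 of 354 (0.282%). Median UMIs were 9724 per enteroendocrine-like, 18431 per goblet/Paneth-like and 20830 per stem-like cell, so that the class with Etv1 was also the shallowest of these. By unthinned counts, 6 of the 1378 cells outside the enteroendocrine-like class held a UMI.

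Within the enteroendocrine-like class the Etv1 counts were carried by few cells, fewest in the mutant cultures. An Etv1 UMI was found in 1 of 7, 3 of 9 and 2 of 8 cells of the mutant cultures, and in 8 of 16 and 9 of 14 cells of the control cultures. The richest cell held 17 of 17, 16 of 18 and 11 of 13 counts in the mutant and 15 of 43 and 18 of 44 counts in the control cultures. Summed over the class, Etv1 in mutant minus control cells came to −0.46 on the log2 scale (SE 0.30; edgeR adjusted p = 0.948), and to −0.69 without control culture 1 and −0.24 without control culture 2. In that comparison 3 members were tested with 0 passing, and 0.0512% of 1954 genes passed. The pooled ratio was 0.738, with a counting interval of 0.508 to 1.06. Without the richest cell of each culture, chosen after the counts were seen, the difference was −3.17 on the log2 scale (SE 0.71; edgeR adjusted p = 0.205).

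The mutant cells rich in Etv1 were also rich in peptide hormone transcripts. A bound of at least 50 UMIs of Gcg, Cck, Nts, Pyy or Ghrl, also chosen after the values were seen, picked 7 cells, 3 of them mutant and 4 control, 1 in each mutant culture. All 7 held Etv1, with 73 of the 135 counts together (54.1%), and in each mutant culture that cell was the one richest in Etv1, with 17, 16 and 11 UMIs. In the other cells of the class Etv1 stood at 0, 28.6 and 25.2 CPM in the mutant and 145.4 and 355.2 CPM in the control cultures. These were 0, 2 and 2 counts against 28 and 30 counts, which did not overlap. The bound had taken out 17, 16 and 11 counts in the mutant and 15 and 14 counts in the control cultures. In each mutant culture it took out the cell richest in Etv1. The low mutant remainder was thus in part set by the bound, and nothing is read from the lack of overlap. How many other genes were without overlap in these cells was not counted. In control culture 2, 18 of the 30 were in 1 cell with 923 UMIs of Sct, a hormone gene outside the bound, and without the richest of these other cells the levels were 0, 16.3 and 0 CPM in the mutant and 115 and 171 CPM in the control cultures. Of these other cells 12 of 21 mutant and 9 of 26 control ones held at least 3 Neurog3 UMIs, and the part of this make-up in the difference was not tested. Among the others, the 21 cells with at least 3 UMIs of Neurog3, the factor that starts the enteroendocrine lineage, held 64.2 CPM of Etv1, and 538.7 CPM was found in the 7 hormone-rich cells. A further 6 cells with at least 3 Tph1 UMIs held 75.2 CPM. The 20 remaining cells held 231.9 CPM, from 39 counts, of which 18 were in 1 cell. These sub-groups are described over cells of all cultures and were not tested.

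**Figure D2:**
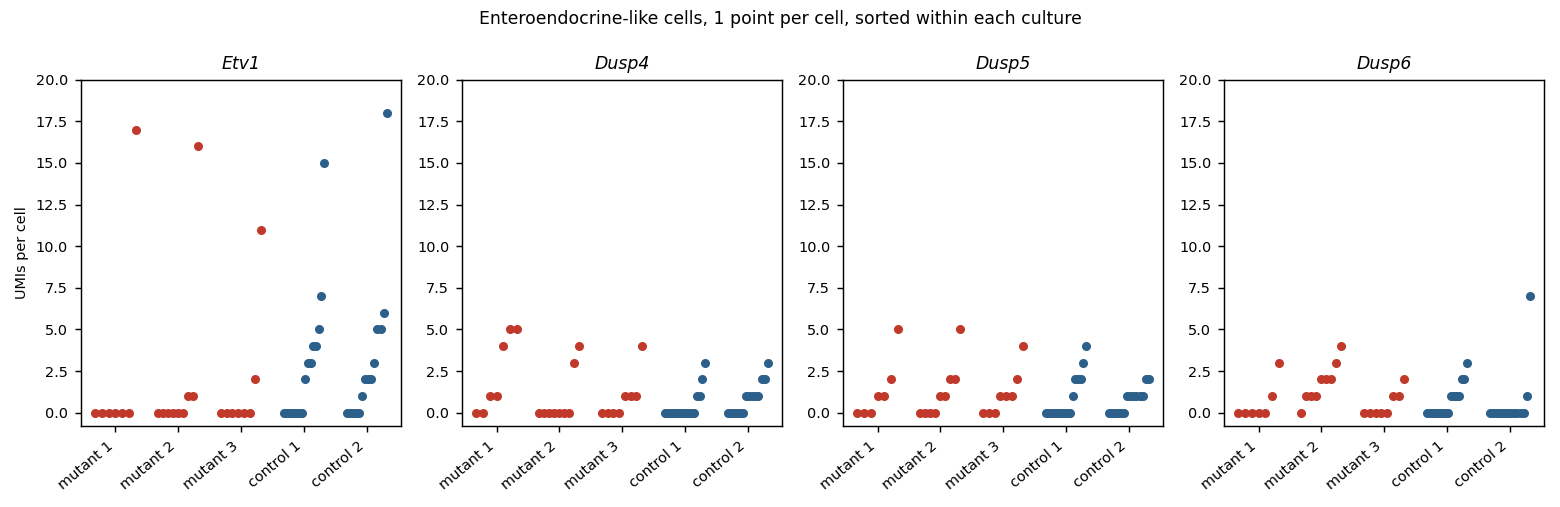
UMIs of Etv1, Dusp4, Dusp5 and Dusp6 in each of the 54 enteroendocrine-like cells, sorted within each culture, with 3 Etv1 mutant cultures left of 2 control cultures. In each mutant culture 1 cell held 11 to 17 Etv1 UMIs and the others 0 to 2, while the control cultures had 8 and 9 cells with Etv1. No cell held more than 7 UMIs of any of the 3 phosphatases.

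The 3 MAP kinase phosphatases were all higher in enteroendocrine-like than in stem-like cells. In that contrast 7 members were tested, of which 4 were higher and 1 lower, where 17.7% of all 6203 genes were higher and 17.6% lower. All 4, Etv1, Dusp4, Dusp5 and Dusp6, passed the low-count filter through the enteroendocrine-like sums alone, so nothing is read from that count. With no low-count filter all 10 members were tested and the same 4 were higher and 1 lower, where 9.32% of 14008 genes were higher and 11.9% lower. The adjusted p given for the 3 phosphatases in this contrast are from that fit. In the filtered fit they were larger (edgeR adjusted p = 4.62e-07 for Dusp5, 1.20e-05 for Dusp4 and 0.0001 for Dusp6), although the log2 fold changes were larger too. The small p of the unfiltered fit are therefore not read as strength. Dusp5, a nuclear phosphatase specific for ERK, stood at 88.5, 125.5 and 101.2 CPM in enteroendocrine-like cells of the mutant and 66.6 and 61.6 CPM in those of the control cultures. In stem-like cells it stood at 14.3, 6.46 and 7.22 CPM in the mutant and 11.9 and 4.0 CPM in the control cultures. The classes did not overlap, and Dusp5 rose by a log2 fold change of 3.06 (SE 0.35), or 2.85 with no filter (edgeR adjusted p = 9.37e-15).

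Dusp6, the cytoplasmic ERK phosphatase, stood at 39.3, 182.6 and 45 CPM in enteroendocrine-like cells of the mutant and 52.4 and 49.3 CPM in those of the control cultures. Stem-like cells had 7.75 to 14.4 CPM. Mutant culture 2 was far above the rest, and the log2 fold change of 2.31 (SE 0.40), or 2.09 with no filter (edgeR adjusted p = 5.34e-08), was 1.69 without it, and with MULTIseqDemux assignment or the stricter cell filter Dusp6 was too low to be tested. In 45 barcodes without a hashtag call that were placed with this class Dusp6 was 10.6 CPM, from 3 counts, against 14.8 CPM in those placed with stem-like cells. Dusp4 stood at 157.4, 79.9 and 78.7 CPM in enteroendocrine-like cells of the mutant and 33.3 and 74.0 CPM in those of the control cultures, against 9.93 to 13.5 CPM in stem-like cells. All 5 cultures showed the same direction, and Dusp4 rose by 2.39 on the log2 scale (SE 0.34), by 2.18 with no filter (edgeR adjusted p = 1.72e-09), and by 1.82 without the richest cell of each culture.

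At least 1 UMI was found in 23 of 54 cells for Dusp4, 28 for Dusp5 and 22 for Dusp6, close to the 23 cells with Etv1, but with at most 5, 5 and 7 UMIs in 1 cell, against 18 for Etv1. The 7 hormone-rich cells held 32.7% of the Dusp4, 17.0% of the Dusp5 and 6.98% of the Dusp6 counts, beside 20.8% of all UMIs of the class. The 21 Neurog3 cells held 49.1% of the Dusp5 counts and 43.1% of all UMIs, and the 20 remaining cells, with neither mark and without 3 Tph1 UMIs, held 55.8% of the Dusp6 counts and 25.8% of all UMIs, differences that were not tested. For Dusp5 the enteroendocrine-like genotype difference was 0.69 (SE 0.42; edgeR adjusted p = 0.948), the smallest p of the 3 members tested there. Dusp4 and Dusp6 were below the count filter of that comparison.

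Dusp5 was also high in enterocyte-like cells, where Etv4, Spred1 and Phlda1 were low. There 6 members were tested, of which 1 was higher, against 30.3% of 6962 genes, and 3 were lower, against 33.6%. Etv4, 1 of these 3, passed the low-count filter through stem-like cells alone, so nothing is read from its part in that count. With no low-count filter all 10 were tested, of which 1 was higher, against 16.4% of 13691 genes, and 5 lower, against 26.9%, with Dusp4 and Etv5 the added ones. Dusp5 stood at 54.4, 58.3 and 79.7 CPM in enterocyte-like cells of the mutant and 54.5 and 80.1 CPM in those of the control cultures. Every value was above all stem-like values, with a log2 fold change of 3.14 (SE 0.27; edgeR adjusted p = 3.61e-12). After thinning, 20.2% of 89 enterocyte-like cells (exact interval 12.4 to 30.1%) and 2.26% of 354 stem-like cells held a Dusp5 UMI, and unthinned shares were 58.8 and 12.6%. Dusp5 shares exon sequence with the antisense gene AC137853.2, and since strand use in counting is not stated, their reads cannot be told apart.

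Etv4, a PEA3 factor induced by ERK, was nearly absent from enterocyte-like cells. It had 1 count there, in mutant culture 2 (1.21 CPM), and 0 in the other 4 cultures, against 26.8, 18.1 and 25.3 CPM in stem-like cells of the mutant and 23.2 and 22.5 CPM in those of the control cultures. The pooled ratio of enterocyte-like to stem-like was 0.0192, with a counting interval of 0.000482 to 0.108, and the fitted log2 fold change was −5.11 (SE 0.66). Etv4 passed the low-count filter through stem-like cells alone, so nothing is read from its filtered call (edgeR adjusted p = 3.95e-08). With no filter Etv4 was −5.24 (edgeR adjusted p = 1.18e-14, smaller as above and not read as strength). It was −7.49 without mutant culture 2, and −2.98, −2.69 and −2.85 with MULTIseqDemux assignment, the stricter cell filter and a finer clustering, where the enterocyte-like class held 168, 188 and 188 cells in place of 97. Spred1, a membrane-bound inhibitor of Ras activation, stood at 4.73, 9.72 and 18.8 CPM in enterocyte-like cells of the mutant and 12.1 and 0 CPM in those of the control cultures, against 22.9 to 29.1 CPM in stem-like cells. The classes did not overlap, and Spred1 fell by 1.32 on the log2 scale (SE 0.35; edgeR adjusted p = 0.0013).

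Phlda1 fell further, by 2.38 (SE 0.17; edgeR adjusted p = 9.43e-14), to 40.2, 109.3 and 75.1 CPM in enterocyte-like cells of the mutant and 64.5 and 44.5 CPM in those of the control cultures. In stem-like cells no culture was under 379.6 CPM. It also fell in enteroendocrine-like cells, by 1.75 (SE 0.21; edgeR adjusted p = 9.36e-07), to 196.7, 79.9 and 134.9 CPM in the mutant and 95.2 and 240.4 CPM in the control cultures. Phlda1 shares exon sequence with the lincRNA gene Gm28592 on the other strand, with the same limit as for Dusp5. Dusp6 (−0.37, SE 0.41) and Spry2 (0.24, SE 0.37) did not pass in enterocyte-like cells (edgeR adjusted p = 0.441 and 0.587). In enteroendocrine-like cells Etv4 (−0.32, SE 0.39) and Spred1 (−0.74, SE 0.50) did not pass (edgeR adjusted p = 0.562 and 0.254).

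**Figure D3:**
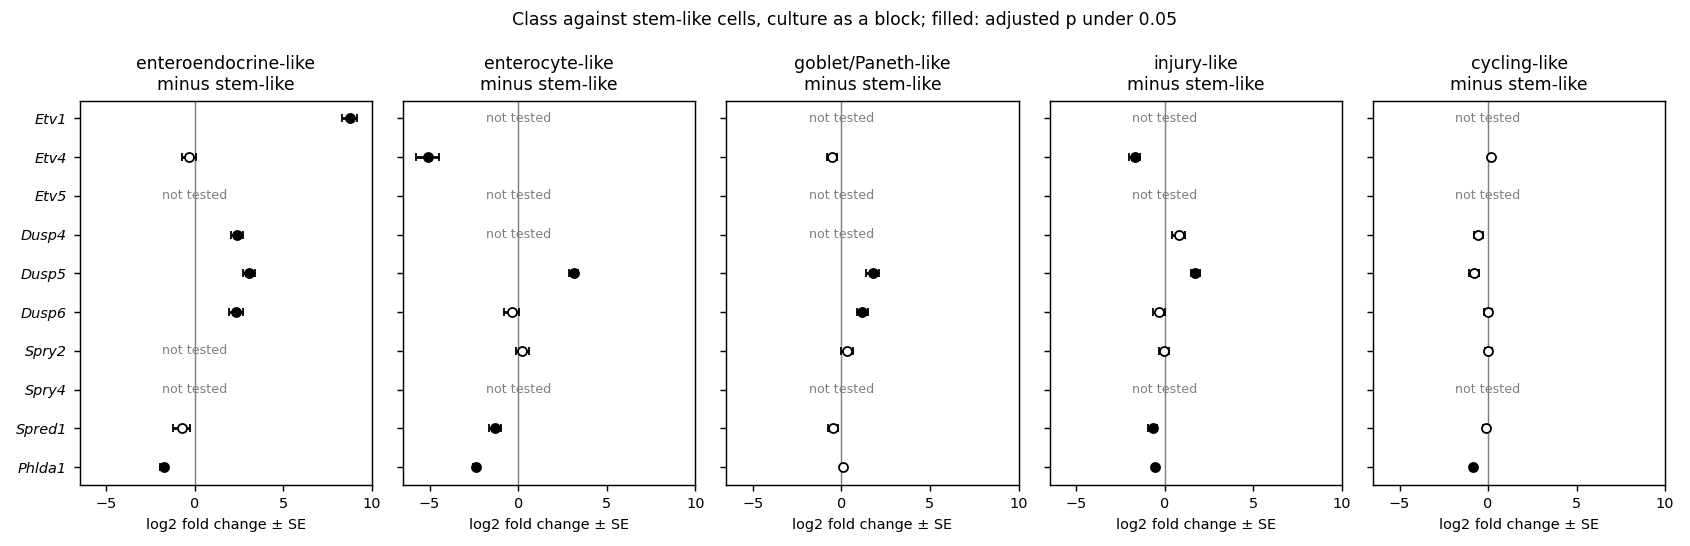
Log2 fold changes with SE from edgeR, culture as a block, for 5 classes of cells, each minus stem-like cells, with filled points at an adjusted p under 0.05 in the filtered fit. In enteroendocrine-like cells Etv1, Dusp4, Dusp5 and Dusp6 passed the low-count filter through that class alone. In enterocyte-like cells Etv4 passed it through stem-like cells alone. Nothing is read from the fill of these points. By fold change Dusp5 lay above stem-like cells in 4 of the 5 classes. Dusp4 and Dusp6 lie at 2.39 and 2.31 in enteroendocrine-like cells, and Phlda1 was lower in 4 classes.

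Goblet/Paneth-like and cycling-like cells had 2 and 1 members past the test. In goblet/Paneth-like cells 6 members were tested, of which 2 were higher, against 12.8% of 6488 genes, and 0 lower, against 8.82%. Dusp5 stood there at 39.7, 5.62 and 16.8 CPM in the mutant and 21.1 and 40.8 CPM in the control cultures (a rise of 1.77 on the log2 scale, SE 0.37; edgeR adjusted p = 0.0019), with mutant culture 2 inside the stem-like range. Dusp6 stood at 11.9, 22.5 and 24.0 CPM in the mutant and 26.4 and 33.0 CPM in the control cultures (1.17, SE 0.30, edgeR adjusted p = 0.0084), higher than in stem-like cells in 4 of 5 cultures. Without control culture 2 the values were 1.21 and 1.08 with adjusted p of 0.0503 and 0.0808, and Dusp6 had an adjusted p of 0.0799 with DESeq2. With MULTIseqDemux assignment, the stricter cell filter or a finer clustering neither gene was among those tested. Etv4, Spry2, Spred1 and Phlda1 lay between −0.51 and 0.29 and did not pass (edgeR adjusted p of 0.219 to 0.681).

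In cycling-like cells 7 members were tested, of which 0 were higher, against 15% of 8825 genes, and 1 was lower, against 12.5%. Phlda1 fell by 0.82 (SE 0.079; edgeR adjusted p = 8.22e-10), to 241.2, 168.3 and 279.2 CPM in the mutant and 214.6 and 311.9 CPM in the control cultures. Dusp5 stood at −0.80 (SE 0.30) with an edgeR adjusted p of 0.0505, just outside the threshold, and at −1.01 (adjusted p = 0.0169) without control culture 2, −0.43 (0.396) without control culture 1 and −1.01 (0.0308) without mutant culture 2. Etv4, which leads the order of classes in cycling-like cells at 26.2 ± 4.22 CPM, was 0.18 (SE 0.15) above stem-like cells, at 23.2 ± 3.30 CPM (SD, n = 5), and did not pass (edgeR adjusted p = 0.386).

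Injury-like cells had more Dusp5 and less Etv4, Spred1 and Phlda1 than stem-like cells, whose sums are shared by all 5 class contrasts. These genes went the same way in enterocyte-like cells. Of the markers used for naming, 6 of 13 enterocyte markers were raised in the injury-like class beside 7 of 10 injury markers. In the injury-like contrast 7 members were tested, of which 1 was higher, against 26.3% of 7263 genes, and 3 were lower, against 26.5%. Dusp5 rose by 1.72 (SE 0.25; edgeR adjusted p = 1.80e-05), with 55.2, 22.0 and 8.86 CPM in the mutant and 34.7 and 15 CPM in the control cultures, a range that overlapped that of stem-like cells. Etv4 fell by 1.70 (SE 0.32; adjusted p = 0.000272), to 1.53, 5.99 and 13.3 CPM in the mutant and 5.79 and 7.49 CPM in the control cultures, and lost this call with the stricter cell filter, at −1.03 (adjusted p = 0.0913). Spred1 was lower by −0.69 (SE 0.25; edgeR adjusted p = 0.0301) and lost this call without control culture 1, control culture 2 or mutant culture 2, at −0.64, −0.63 and −0.48 (adjusted p = 0.0998, 0.0739 and 0.149), and also with DESeq2, MULTIseqDemux assignment and the stricter cell filter (0.221, 0.194 and 0.339). Phlda1 was lower by −0.57 (SE 0.12; adjusted p = 0.00076), but its sign turned to 0.46, 0.58 and 0.44 with MULTIseqDemux assignment, the stricter cell filter and the finer clustering, where the injury-like class held 40, 34 and 40 cells in place of 129. Dusp4 was 0.78 (SE 0.35; adjusted p = 0.0692) and 1.14 (adjusted p = 0.0050) without mutant culture 2 and 0.32 (0.502) without control culture 2.

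**Figure D4:**
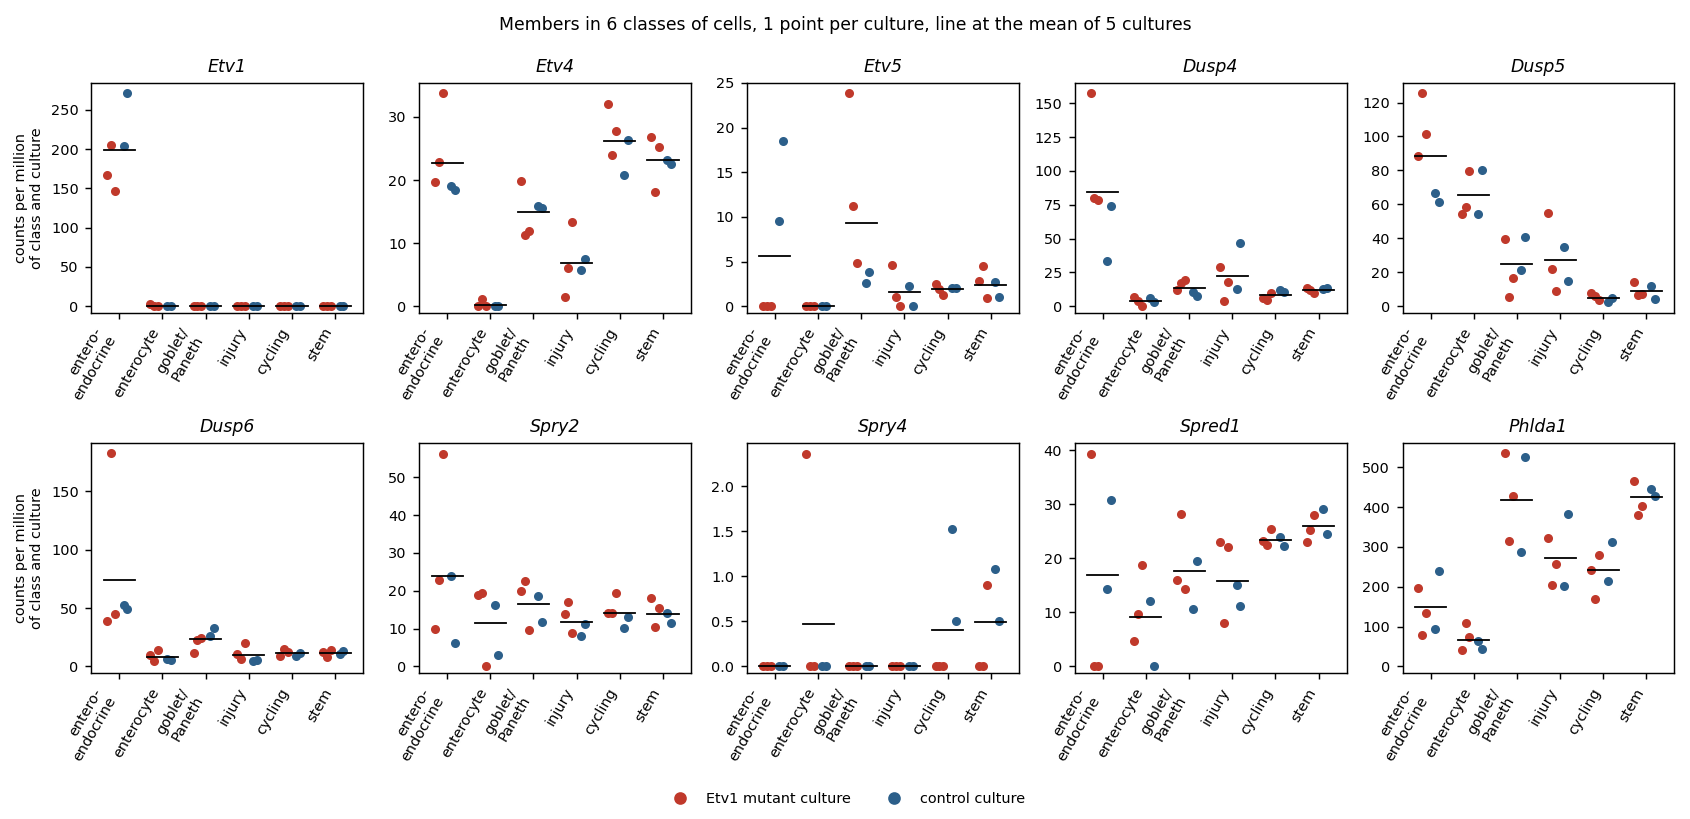
CPM of the 10 genes in 6 classes of cells, 1 point per culture, mutant cultures left of control cultures within each class and a line at the mean of 5 cultures. Etv1 lies in enteroendocrine-like cells, Dusp5 is highest in enteroendocrine-like and next in enterocyte-like cells, Etv4 is at or near 0 in enterocyte-like cells, and Phlda1 is highest in stem-like and goblet/Paneth-like cells.

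The order of the classes differed between the members. For Phlda1 it ran from stem-like (424 ± 33.8 CPM) and goblet/Paneth-like cells (419 ± 116) to injury-like (273 ± 78.0), cycling-like (243 ± 55.8), enteroendocrine-like (149 ± 68.0) and enterocyte-like cells (66.7 ± 27.8; SD, n = 5 each). Stem-like and goblet/Paneth-like cells did not differ beyond their spread (stem-like higher in 2 of 5 cultures), nor did injury-like and cycling-like cells (3 of 5), while goblet/Paneth-like lay above injury-like and cycling-like above enteroendocrine-like cells in 5 of 5 cultures. Dusp5 ran from enteroendocrine-like (88.7 ± 26.1 CPM) and enterocyte-like (65.4 ± 13.4) to injury-like (27.1 ± 18.4), goblet/Paneth-like (24.8 ± 15.2), stem-like (8.78 ± 4.21) and cycling-like cells (4.91 ± 2.05). The first 2 of these differed in the same direction in 4 of 5 cultures, by 23.3 ± 31.3 CPM, less than the spread. Dusp4 ran from enteroendocrine-like (84.6 ± 44.98 CPM) over injury-like (22.1 ± 16.5), goblet/Paneth-like (13.3 ± 4.67), stem-like (12.3 ± 1.44) and cycling-like (8.60 ± 3.03) to enterocyte-like cells (3.95 ± 2.78). Below its top class, stem-like exceeded cycling-like cells in 5 of 5 cultures, and the other neighbours in 2 to 4.

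Dusp6 was highest in enteroendocrine-like cells (73.7 ± 61.1 CPM, above goblet/Paneth-like cells in 5 of 5 cultures), then in goblet/Paneth-like (23.6 ± 7.65), and stood between 8.08 and 11.7 CPM in the remaining 4 classes, where no neighbours in the order differed beyond their spread, although stem-like exceeded enterocyte-like cells in 5 of 5 cultures (by 3.61 ± 2.49 CPM). Etv4 stood at 22.8 ± 6.37 CPM in enteroendocrine-like, 14.9 ± 3.46 in goblet/Paneth-like, 6.82 ± 4.24 in injury-like and 0.243 ± 0.543 CPM in enterocyte-like cells, below the cycling-like and stem-like levels given above, and only the last 2 differed the same way in 5 of 5 cultures among neighbours. Spred1 ran from stem-like (25.9 ± 2.54 CPM) and cycling-like (23.5 ± 1.23) to enterocyte-like cells (9.06 ± 7.15), with no neighbours apart in all 5 cultures. Spry2 had no neighbours in its order that differed beyond their spread, with means between 11.5 CPM in enterocyte-like and 23.8 ± 19.7 CPM in enteroendocrine-like cells.

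Etv5 and Spry4 were below the low-count filter in every class contrast. With no filter both were tested, and Etv5 was called lower in enterocyte-like cells, as given above. Etv5 had 80 counts in all, and its level was 9.28 ± 8.79 CPM in goblet/Paneth-like, 5.60 ± 8.30 in enteroendocrine-like, 2.40 ± 1.499 in stem-like, 1.92 ± 0.455 in cycling-like and 1.58 ± 1.94 CPM in injury-like cells. No count fell in enterocyte-like cells, which allows up to 1.31 CPM. In enteroendocrine-like cells its 5 counts were 0, 0 and 0 in the mutant cultures and 2 and 3 in the control cultures, which is too few to compare. The 12 Spry4 counts lay in stem-like (4), cycling-like (4), enterocyte-like (1) and unnamed cells (3).

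The members did not form 1 pattern over cell types. Over 27 sums of a class in a culture with at least 10 cells, which leaves out the enteroendocrine-like cells of all 3 mutant cultures, so that the Etv1 values rest on those of the 2 control cultures, Pearson correlations of log2(CPM + 1) between members ran from −0.70 for Etv4 with Dusp5 to 0.77 for Etv4 with Phlda1. Etv1 had 0.60 with Dusp6, 0.50 with Dusp4 and 0.34 with Dusp5, and Dusp4 had −0.14 with Dusp5. Among 5188 other genes with a mean of at least 20 CPM, the patterns most like Etv1 were those of Neurod1 (0.99), an enteroendocrine transcription factor, and Chga (0.96), a protein of hormone granules. Both are markers by which the enteroendocrine-like class was named, so this likeness was largely set by the naming and supports nothing. Etv4 was most like Ncl (0.96), the nucleolar protein nucleolin, and Stip1 (0.96), a co-chaperone. The 2 nearest genes were Blnk (0.91) and Krt18 (0.89), an epithelial keratin, for Phlda1, Smim22 (0.88) and Myo15b (0.87) for Dusp5, Ipo5 (0.86) and Phf20 (0.85) for Spred1, and Tox4 and Dnajc10 (0.85 each) for Etv5. They were Cux1 (0.83) and Blmh (0.82) for Spry2, Luc7l2 and Crebbp (0.83 each) for Dusp6, Anxa5 (0.82) and Eif5b (0.78) for Dusp4 and Prpf4b and Hdac11 (0.50 each) for Spry4. The sums share cultures, classes and depth, so these are descriptions with no test.

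The rest of the pathway was read from lists of 7 kinds. Between mutant and control over all cells 0 of 5 EGF family ligands, 0 of 9 receptors, 0 of 12 adaptors and Ras proteins, 0 of 8 RAF, MEK and ERK kinases, 0 of 8 other negative regulators, 0 of 12 immediate early genes and 0 of 13 other ETS factors passed. List medians lay between −0.06 and 0.07, beside 0.00 over all genes tested. In 5 of the 7 lists the 2 smallest p belonged to Ereg (−2.09, SE 0.60) and Hbegf (0.48, SE 0.14), both ligands of the EGF receptor, Insr (0.22, SE 0.16) and Fgfr4 (−0.23, SE 0.18), Lrig1 (−0.29, SE 0.14) and Dusp1 (0.09, SE 0.11), Fos (0.35, SE 0.10) and Myc (−0.23, SE 0.092), and Elf4 (0.32, SE 0.17) and Ets2 (−0.28, SE 0.15). All had an edgeR adjusted p of 0.9997.

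Between classes more list members passed, to be read against the shares of all genes called in each contrast given above. The immediate early list held ERK-responsive genes, with Ccnd1 among them. Of its genes, 10 of 10 tested were lower in cycling-like than in stem-like cells (median log2 fold change −0.71, all genes −0.02). In enterocyte-like cells 6 of 8 were lower and 1 higher (median −0.67, all genes −0.09), and in goblet/Paneth-like cells 6 of 10 were higher and 0 lower (median 0.61, all genes −0.02). In enteroendocrine-like cells 4 of 9 were higher and 2 lower, and in injury-like cells 2 of 8 were higher and 6 lower (median −0.78, all genes −0.03). Receptors were lower in 6 of 9 in cycling-like cells (median −0.66). RAF, MEK and ERK kinases were higher in 3 of 6 in enterocyte-like, 3 of 7 in enteroendocrine-like and 3 of 6 in injury-like cells. With 0 lower in each, these counts stand beside 30.3, 17.7 and 26.3% of all genes higher. Other negative regulators had 1 higher and 2 lower of 6 in enterocyte-like and 0 called of 6 in enteroendocrine-like cells. Other ETS factors had 0 higher and 4 lower of 9 in enterocyte-like cells, near the 33.6% of all genes lower there, 2 higher and 2 lower of 8 in enteroendocrine-like cells and 4 higher and 2 lower of 10 in goblet/Paneth-like cells.

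In the mouse genome (mm10, GENCODE vM21) the genes lie at chr12:38779380-38870484 on the plus strand for Etv1, chr11:101769742-101785371 (minus) for Etv4, chr16:22381309-22439719 (minus) for Etv5, chr8:34807297-34819894 (plus) for Dusp4, chr19:53529109-53542431 (plus) for Dusp5, chr10:99263231-99267489 (plus) for Dusp6, chr14:105891947-105896819 (minus) for Spry2, chr2:117121374-117182279 (plus) for Spred1 and chr10:111506286-111508645 (plus) for Phlda1. These are the full spans, with introns. Apart from Dusp5 and Phlda1, none of these 9 shares exon sequence with another annotated gene.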

How the data were processed

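A pool of 5 cultures was sequenced as an RNA and a hashtag library. Deposited were whole hashtag counts and estimated RNA counts per gene and cell, of which 95.6% of values above 0 are whole and all values of the 10 genes are; the submitters' processing notes name the build mm10 and the tools Seurat 4.3.0, Salmon 1.4.0, alevin and Cell Ranger 6.1.0, with roles not given in the sources used here. From the deposited hashtag counts, HTODemux (Seurat 5.3.0, quantile 0.99) gave each barcode its culture, cells with at least 500 genes and at most 25% mitochondrial counts were kept, and 239 barcodes positive for more than 1 hashtag were dropped as doublets. No doublet caller was run within cultures, so such doublets may remain. Cells were clustered with scanpy 1.11.5 (Leiden resolution 0.8) without 89 pathway genes. The authors' estimated counts were summed per culture and class, rounded and tested with edgeR 4.0.16 (TMM, filterByExpr, Benjamini-Hochberg, adjusted p under 0.05), class contrasts with culture as a block, and the test was checked on simulated data. SE is the log2 fold change over the root of its F statistic. Alternatives were DESeq2 1.42.0, RLE scaling, no low-count filter, MULTIseqDemux assignment, a stricter cell filter (at least 1000 genes, at most 15% mitochondrial counts), a finer clustering (resolution 1.2), 197 cells per culture, no culture block and leaving out each culture; leaving out the richest cell was added after the data were seen. All 10 genes were named, with, within a class, Etv1 and the smallest p, the 2 smallest p of each pathway list (those of 2 lists are not reported here) and the 2 most alike genes. The members and lists were chosen with earlier results of these data known. Intervals cover counting error only. Where a class had 0 counts, the level allowed is 3 counts over its UMIs, or 3 cells over its number of cells. For barcodes without a hashtag call it is the upper end of the exact Poisson interval.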

Additional observations from a re-analysis of the deposited data

Results flagged for a closer look

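Etv1 was also found in barcodes that no comparison used. Of 1054 barcodes without a hashtag call, 45 were placed with the enteroendocrine-like class by their correlation with class means, a method that returned 87.8% of hashtagged cells to their own class. These 45 barcodes held 32 of the 36 Etv1 counts (113.3 CPM, exact Poisson interval 77.5 to 160.0), in 8 barcodes, while the 129 placed with goblet/Paneth-like cells, at a median of 1222 UMIs, held 0, which allows up to 9.58 CPM. Dusp5 in the 166 barcodes placed with enterocyte-like cells was 65.3 CPM (56.7 to 74.9), and Etv4 there was 1.28 CPM, from 4 counts. In the enteroendocrine-like barcodes Dusp4 was 63.8 CPM and Dusp5 42.5 CPM, but Dusp6 was 10.6 CPM (3 counts, 2.19 to 31.1), against 66.1 CPM in hashtagged enteroendocrine-like cells and 14.8 CPM in stem-like barcodes, so the higher Dusp6 level of the hashtagged cells was not seen there. Which genotype these barcodes came from cannot be told.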

How the results depend on the processing

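No member passed between mutant and control in all, stem-like, cycling-like or enteroendocrine-like cells, the classes tested, under any alternative run. Leaving out the cell richest in a member lowers that member by construction, also for Spred1 in enteroendocrine-like minus stem-like cells (−1.88, adjusted p 0.0156). In the sums over all cells the sign of small values turned: Etv4 was −0.040 with MULTIseqDemux assignment, −0.044 with equal cell numbers and −0.070 to 0.20 when 1 culture was left out, Spred1 was −0.096, −0.065 and −0.077 to 0.12 in the same order, Etv5 was −0.20 with MULTIseqDemux assignment, and Dusp6 was −0.16 to 0.24 with 1 culture left out. Against stem-like cells, Spry2 in enterocyte-like cells was −0.11 with DESeq2, −0.19 with MULTIseqDemux assignment and −0.27 to 0.45 with 1 culture left out. In cycling-like cells Spry2 was −0.042 with the stricter cell filter and −0.10 to 0.15 with 1 culture left out, and Dusp6 −0.29 to 0.080. In injury-like cells Spry2 was −0.38 to 0.086 with 1 culture left out, and Phlda1 was 0.46 with MULTIseqDemux assignment, 0.58 with the stricter filter and 0.44 at Leiden resolution 1.2. In goblet/Paneth-like cells Phlda1 was −0.0135 with no low-count filter and −0.092 at resolution 1.2. In place of 2 members called there were 1 with DESeq2 and 0 to 2 with 1 culture left out. With MULTIseqDemux assignment, the stricter filter or resolution 1.2 there were 0, where Dusp5 and Dusp6 were not among the genes tested. In cycling-like cells 2 members were called in place of 1 with no low-count filter, MULTIseqDemux assignment or resolution 1.2, and 1 to 2 with 1 culture left out (the added one was Dusp4 at resolution 1.2 and Dusp5 in the others). In injury-like cells 2 were called in place of 4 with MULTIseqDemux assignment or the stricter filter and 0 at resolution 1.2. With no low-count filter 2 were higher, Dusp4 being the added one, against 16.8% of 13816 genes, and 3 lower, against 18.1%. For the other alternatives the shares of all genes called are not given here, so nothing is read from these counts. The stem-like class also changed, to 288, 282 and 187 cells with MULTIseqDemux assignment, the stricter filter and resolution 1.2, in place of 364. These settings therefore change both sides of a class contrast. The causes were not tested. No paired analysis was possible because the labels give no number that ties a mutant to a control culture. With 54 enteroendocrine-like cells, 7 to 16 per culture, single cells set the levels there.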
